A study of Mus musculus with 12 samples.

Results

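A set of 10 transcription factors that build the heart was followed through single cultured cardiac progenitor cells (CPCs): Gata4, Gata5, Gata6, Hand1, Hand2, Mef2c, Nkx2-5, Isl1, Tbx5 and Tbx20. They were chosen by name, as 10 of the 21729 genes in the table of read counts. The question was which of them were counted in every cultured cell and which in none. The table holds no fresh cells, so retention or loss of a factor in culture was not tested. The cells came from FVB female mice aged 12 weeks. Non-myocytes of digested hearts, pooled before plating, were depleted of blood lineages and enriched for c-Kit with magnetic beads (c-Kit+ Lin-). They were grown on gelatin in a serum medium with leukemia inhibitory factor, basic fibroblast growth factor and epidermal growth factor, and passaged 5 times. Each of 12 cells was picked by hand and turned into 1 full-length cDNA library, and the 12 cells form 1 group named cultured. The culture or animal of a cell is not given, so the group counts as 1 sample, the spread below describes these cells, and no test was made between them.

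Totals per cell ran from 3453708 to 5690184 counts. A gene at 0 counts could still lie at the level of 3 counts, which is 0.869 CPM (counts set to a library of 1000000) in the shallowest library and 0.527 CPM in the deepest. Kit, the receptor gene of the sort, had 21 counts in cell 10 and 0 in the other 11 cells. The hearts are labelled female, yet the Y-linked genes Ddx3y and Eif2s3y were counted in 12 of 12 cells, at medians of 62.8 and 64.5 CPM, so the label of sex does not match these libraries. Cell 10 stood apart with a summed level of 9810 CPM over 10 endothelial marker genes, against 0.629 to 58.5 CPM in the others. Cells 3, 8 and 10 set several of the extremes below.

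The 10 proteins act together in the embryonic heart. The GATA factors are zinc finger proteins, HAND proteins are basic helix-loop-helix partners, Mef2c carries a MADS domain, Nkx2-5 and Isl1 are homeodomain proteins, and Tbx5 and Tbx20 are T-box proteins. They bind enhancers of the same heart genes in overlapping sets, and several bind one another. Nkx2-5 and Tbx5 are known for the first heart field and the conduction system, Isl1 and Hand2 for the second heart field and the right ventricle, and Hand1 for the left ventricle. Gata4, Gata6, Tbx20 and Mef2c are also used by fibroblasts, epicardial cells, endocardium or smooth muscle of the heart.

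The factors fell into 3 classes. Gata4, Gata6, Hand2, Mef2c and Tbx20 had counts in 12 of 12 cells. Tbx5 was counted in 10 cells and Isl1 in 3 cells. Gata5, Hand1 and Nkx2-5 had no count in any cell. Among all genes listed, 35.3% were counted in every cell and 33.4% in none. The 3 factors of 10 without a count are thus close to the share among all genes, and the 5 counted in every cell are 50% of the 10. Neither difference was tested. The median of the factors' median levels was 12.4 CPM, against 0.298 CPM over all genes. No factor was near that value, which lies between Tbx5 at 1.75 CPM and Hand2 at 23.2 CPM. Reads carry no molecular identifiers, so the floors above and the interval of a count below cover counting error only.

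**Figure D1:**
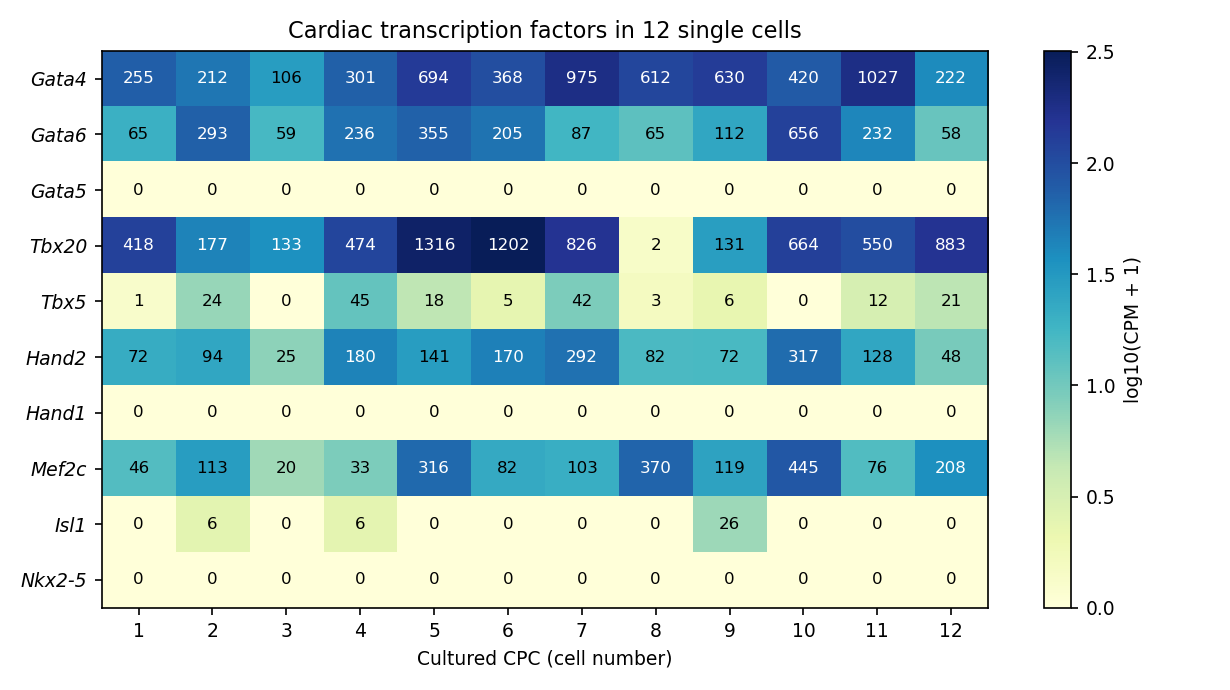
Read counts of the 10 factors (rows) in the 12 cultured CPCs (columns); the number in each box is the raw count and the colour is log10(CPM + 1). The rows of Gata4, Gata6, Tbx20, Hand2 and Mef2c have a count in each column, the rows of Gata5, Hand1 and Nkx2-5 are 0 throughout, and Tbx20 drops to 2 counts in cell 8.

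The clearest contrasts lay inside gene families, where one relative was counted in every cell and another in none. The coding sequences of these relatives are alike in the DNA-binding part, so the stretches in which they match best are shown here, with the bases that both genes share in capitals. Sequences are those of GENCODE vM21 transcripts, 5′ to 3′ on the coding strand, and positions count from 1 at the first base of the coding sequence. Gata4 bases 841 to 956 and Gata5 bases 778 to 893 share 90 of 116 bases (77.6%). Hand2 bases 340 to 446 and Hand1 bases 325 to 431, in the helix-loop-helix region, share 98 of 107 bases (91.6%).
Gata4: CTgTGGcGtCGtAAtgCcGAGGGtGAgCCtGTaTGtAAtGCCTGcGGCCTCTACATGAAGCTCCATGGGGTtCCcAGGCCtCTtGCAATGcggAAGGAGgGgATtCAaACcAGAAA
Gata5: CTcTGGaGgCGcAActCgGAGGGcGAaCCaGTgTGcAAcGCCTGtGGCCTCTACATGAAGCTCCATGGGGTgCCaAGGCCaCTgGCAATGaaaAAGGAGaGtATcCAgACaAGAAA
Hand2: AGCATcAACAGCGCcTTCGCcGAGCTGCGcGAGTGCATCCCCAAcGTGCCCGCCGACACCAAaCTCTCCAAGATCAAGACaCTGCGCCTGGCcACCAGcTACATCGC
Hand1: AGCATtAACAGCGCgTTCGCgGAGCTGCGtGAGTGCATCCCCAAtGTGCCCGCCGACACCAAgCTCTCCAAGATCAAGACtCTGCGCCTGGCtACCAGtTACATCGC

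The longest run of identical bases was 26 between Gata4 and Gata5, and 17 between Hand2 and Hand1, in reads of 75 bases. It was 34 bases between Nkx2-5 and Nkx2-6, 28 between Mef2c and Mef2d, 23 between Isl1 and Isl2, and 14 between Tbx20 and Tbx5. No identical stretch between these pairs was as long as 1 read.

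Gata4 is the zinc finger factor needed to form the heart tube and to keep cardiomyocytes alive. Of the 5 factors counted in every cell it had the lowest coefficient of variation (SD over mean), at 52.7%. Beside the genes nearest in mean level Hand2 was more even, since 61% of them had a smaller coefficient, against 65.5% for Gata4. Its lowest level was 27.9 CPM in cell 3, the median 88.3 CPM and the highest 185 CPM in cells 7 and 11, or 106 to 1027 counts. The mean was 99.5 ± 52.5 CPM (SD, 12 cells). Gata4 lies on chromosome 14, 63198922 to 63271692, minus strand (GRCm38, the build named mm10; positions count from 1).

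Gata6 shares many enhancers with Gata4 and is also known from smooth muscle and outflow tract. It had 58 to 656 counts, with a lowest level of 10.2 CPM in cell 12, a median of 32.7 CPM and a highest level of 123 CPM in cell 10. The next cell had 72.3 CPM, and without cell 10 the median was 23.5 CPM. Cells 10, 2, 5 and 4 had the highest levels, and cells 12, 8, 3 and 7 the lowest. Gata6 lies on chromosome 18, 11052064 to 11085635, plus strand, and 93 bases of its exons (1.43%) overlap the exon of another annotated transcript on the minus strand, 1010001N08Rik.

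Gata5, known from endocardium, was at 0 in 12 cells. Over the pooled total of 56346231 counts, 0 counts allow up to 0.0532 CPM. Among the other GATA genes, Gata2, a factor of endothelial and blood cells, was counted in 11 cells at a median of 7.57 CPM, and Gata3 in 11 cells at 3.75 CPM. In cell 10 Gata2 reached 77.0 CPM, whereas the other cells had 11.9 CPM or less. Gata1, the erythroid factor, had no count. Gata5 lies on chromosome 2, 180325133 to 180334699, minus strand, and shares 258 exon bases (7.87%) with its antisense gene Gata5os.

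Tbx20, a T-box factor of the heart fields that is also needed in adult cardiomyocytes, had the widest range of the factors counted in every cell. Its lowest level was 0.364 CPM in cell 8, the median 117 CPM and the highest 319 CPM in cell 6. The other 11 cells lay between 27.5 and 319 CPM, with a median of 121 CPM. The 2 counts in cell 8 (exact 95% Poisson interval 0.242 to 7.22) are 0.300% of that median, which would have given 666 counts at the total of cell 8. Tbx20 therefore passed as present in every cell by 2 counts, and at 5 counts or more 4 factors did. Of the 200 genes nearest to Tbx20 in mean CPM, 9 had 3 counts or fewer in some cell, 6 of them in cell 8. Tbx20 lies on chromosome 9, 24718138 to 24774303, minus strand.

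Tbx5, the factor of the first heart field and of the forelimb, was at the edge of detection. Cells 3 and 10 had 0 counts and cells 1, 8, 6 and 9 had 1, 3, 5 and 6. Cells 11, 5, 12, 2, 7 and 4 had 12, 18, 21, 24, 42 and 45. The median was 1.75 CPM and the highest level 10.8 CPM in cell 4, and 8 of 12 cells reached 1 CPM. No cell with 0 counts can be told apart from one at the level of 3 counts. Tbx5 lies on chromosome 5, 119832668 to 119885219, plus strand.

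Other T-box genes ranged from counted in every cell to no count. Tbx18, a factor of epicardium and sinus horn, was counted in every cell at a median of 24.4 CPM, and Mga, a large T-box and helix-loop-helix protein, at 30.7 CPM. Tbx15 was counted in 11 cells at 17.9 CPM, Tbx3 in 10 cells at 0.814 CPM, Tbx2 in 7 cells at 1.57 CPM and Tbx6 in 4 cells. The early mesoderm genes T and Eomes had no count, nor had Tbx1, a gene of the second heart field, Tbx4 or Tbx21.

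Hand2, the helix-loop-helix factor of the second heart field and of neural crest, was counted in every cell, whereas Hand1, its relative of the left ventricle and extraembryonic mesoderm, was at 0 in 12 cells. Hand2 had 25 to 317 counts. The lowest level was 6.59 CPM in cell 3, the median 23.2 CPM and the highest 59.5 CPM in cell 10, followed by 55.5 CPM in cell 7. Hand2 lies on chromosome 8, 57320983 to 57324633, plus strand. Its exons share 461 bases (19.6%) with the minus-strand gene Hand2os1, which the table does not list. The library kit does not mark strand, so reads from that overlap cannot be assigned to either gene. Hand1 lies on chromosome 11, 57828705 to 57832818, minus strand. The E proteins that pair with HAND factors, Tcf3, Tcf4 and Tcf12, were counted in 12 cells at medians of 31.2, 45.6 and 52.2 CPM.

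Mef2c, the MADS-box factor of the anterior heart field that also acts in endothelium and smooth muscle, was counted in every cell with 20 to 445 counts. The lowest level was 5.27 CPM in cell 3, the median 23.4 CPM and the highest 83.6 CPM in cell 10, followed by 67.3 CPM in cell 8. Its relatives Mef2a and Mef2d, which are expressed in many tissues, were counted in 12 cells at medians of 81.2 and 45.8 CPM, and Mef2b had no count. Mef2c lies on chromosome 13, 83504034 to 83667080, plus strand.

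Isl1, the LIM-homeodomain factor that marks second heart field progenitors, had 6 counts in cell 2, 6 in cell 4 and 26 in cell 9. It was at 0 in the other 9 cells, and its highest level was 5.45 CPM. All 3 cells with a count were among the 7 cells that had 11216 or more genes counted, and none among the 5 that had 10181 or fewer. A sparse gene falls more readily among cells with more genes counted by construction. The share of all genes counted only among the 7 was not computed, so this is no trait of Isl1. Isl2 was counted in 5 cells and Lhx9, another LIM-homeodomain gene, in 11 cells at a median of 17.6 CPM. Ldb1, which bridges LIM factors, was at 41.1 CPM in the median and counted in 12 cells. Isl1 lies on chromosome 13, 116298281 to 116309689, minus strand.

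Nkx2-5, the homeodomain factor of the earliest cardiac cells and of cardiomyocytes, was at 0 in 12 cells, which allows up to 0.0532 CPM over the pooled total. The 6 NK2 genes in the lists, Nkx2-1, Nkx2-2, Nkx2-3, Nkx2-5, Nkx2-6 and Nkx2-9, had 0 counts together. Nkx2-5 lies on chromosome 17, 26838664 to 26845009, minus strand.

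GATA factors bind DNA at the letters GATA in a set context, so the promoters of the factors were read for the hexamer AGATAA with its variant AGATAG, and the hexamer TGATAA with its variant TGATAG, on either strand. RefSeq promoter windows of 250 bases before the start were at hand for 6 of the 10 factors, in 8 windows. Hand2 held 2 matches and Isl1 held 1, while the windows of Tbx20, Mef2c, Gata5 and Nkx2-5 held none. Of 32851 windows of all genes, 26.5% held at least 1 match. The windows of Hand2 and Tbx20 are printed because both genes were counted in every cell and they differ in these letters. Matches are in capitals, 5′ to 3′ on the strand of the gene, in GRCm38. The Hand2 window is chr8:57320733-57320982 on the plus strand, has 49.2% G and C, and lies wholly in an exon of Hand2os1. The Tbx20 window is chr9:24774304-24774553 on the minus strand, has 68.8% G and C, and holds no annotated exon. A match describes the letters only and is not a measured binding site.
Hand2 promoter: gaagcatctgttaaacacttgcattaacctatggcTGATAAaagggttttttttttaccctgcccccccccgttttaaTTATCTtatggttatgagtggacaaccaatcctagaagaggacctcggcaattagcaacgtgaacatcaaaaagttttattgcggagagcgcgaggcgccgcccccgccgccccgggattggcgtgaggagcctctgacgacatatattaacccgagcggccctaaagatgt
Tbx20 promoter: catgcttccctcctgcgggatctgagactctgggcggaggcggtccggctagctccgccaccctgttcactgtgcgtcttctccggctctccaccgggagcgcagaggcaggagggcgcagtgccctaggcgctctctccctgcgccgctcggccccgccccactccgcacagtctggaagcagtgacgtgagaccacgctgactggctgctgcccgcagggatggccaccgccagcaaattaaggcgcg

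The factors were ranked by level per length of exon. Gata4 was highest, with a median of 22.6 CPM per kb, followed by Hand2 at 9.85, Tbx20 at 9.78, Gata6 at 5.02, Mef2c at 1.49 and Tbx5 at 0.374 CPM per kb. Within single cells Gata4 exceeded Hand2 in 11 of 12 cells, Gata6 exceeded Mef2c in 10, and Mef2c exceeded Tbx5 in 10. Hand2 exceeded Tbx20 in 7 cells and Tbx20 exceeded Gata6 in 8, and the ranges of these 3 factors overlapped widely. When the longest transcript was used as the length, Tbx20 came before Hand2, at 12.9 against 9.85 CPM per kb. Hand2 then exceeded Tbx20 in 6 cells and Tbx20 exceeded Gata6 in 5, so the order of these 3 depended on the length used. Mef2c, whose exons add up to the greatest length of the 10, went from 1.49 to 3.72 CPM per kb with that length and kept its rank. Gata4 led all factors per kb in 9 cells, Tbx20 in cells 6 and 12, and Hand2 in cell 10.

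**Figure D2:**
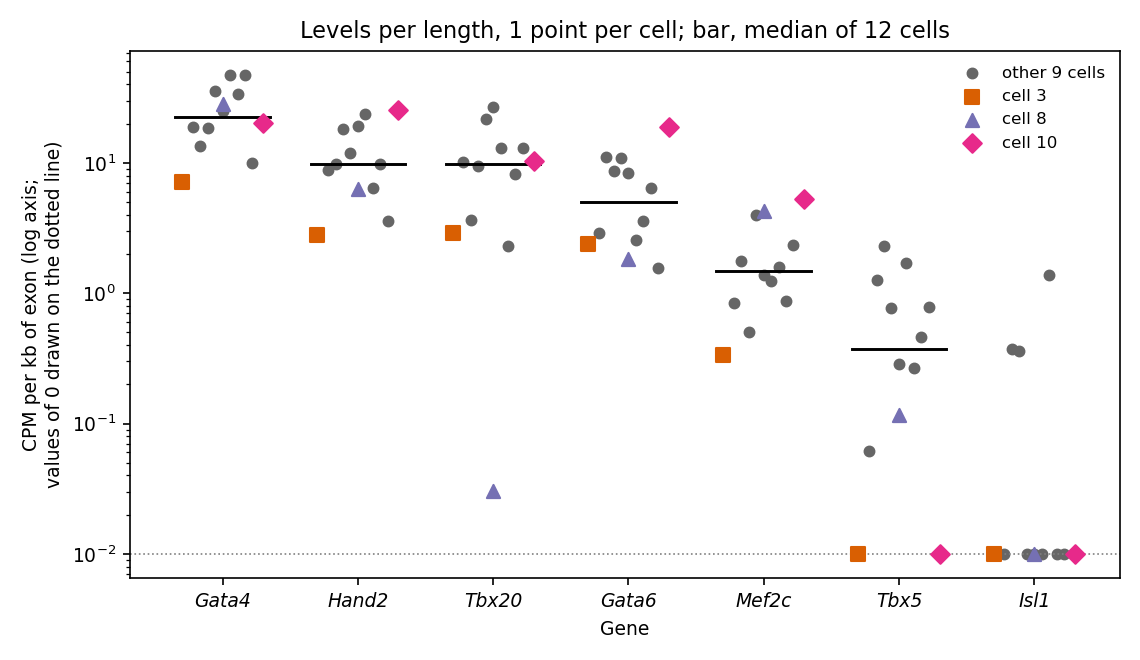
CPM per kb of exon (log axis) of the 7 factors with any count, 1 point per cell, with a bar at the median of 12 cells; values of 0 sit on the dotted line. Gata4 has the highest median, at 22.6 CPM per kb; cell 8 is far below the rest for Tbx20, cell 3 is lowest for Gata4, Hand2 and Mef2c, and cell 10 is highest for Gata6, Hand2 and Mef2c.

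The share of each factor in the summed level of the 10 differed between cells. Their summed level had a median of 279 CPM, with the lowest sum in cell 3 (90.4 CPM) and the highest in cell 5 (565 CPM). Of all reads on the 10 factors, those on Tbx20 made up 46.3% in cell 5, 59.2% in cell 6 and 61.3% in cell 12. In cell 8, with a sum of 206 CPM, 54.0% of these reads were on Gata4. In cell 10 no factor held more than 26.5% of them.

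**Figure D3:**
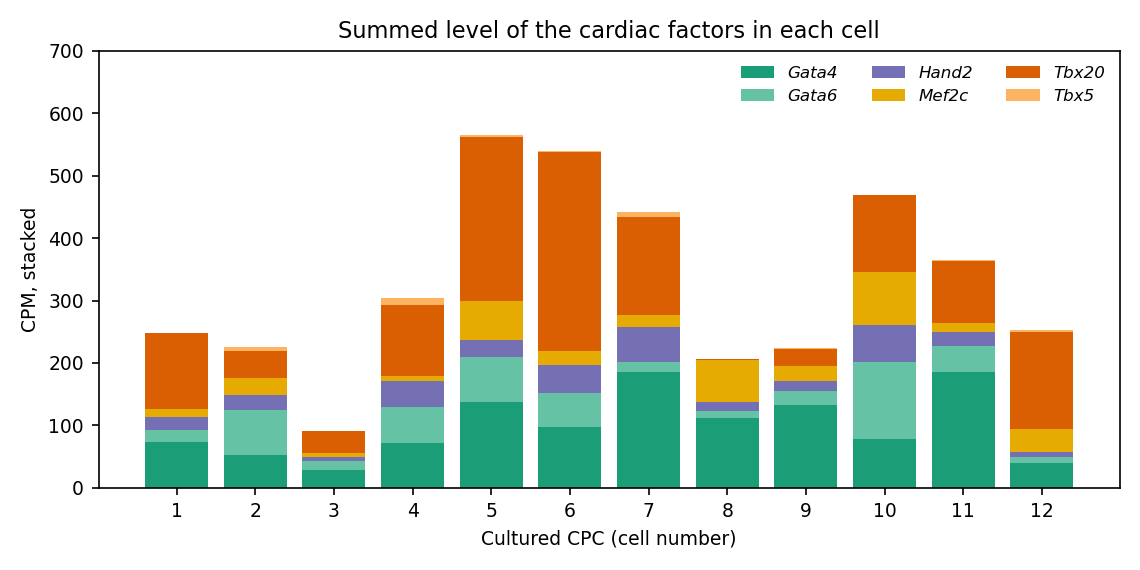
Summed CPM of 6 factors in each of the 12 cells, stacked by gene, with the axis starting at 0; Isl1, at most 5.45 CPM, is not drawn. Cell 3 has the shortest bar and cell 5 the tallest, and the Tbx20 segment is absent to the eye in cell 8.

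Across the 12 cells Gata6 and Hand2 had a Pearson r of log2(CPM + 1) of 0.66 and a Spearman rho of 0.71, with r of 0.57 without cell 10 and 0.64 without cell 3. Gata4 and Hand2 had r of 0.55, which was 0.63 without cell 10 and 0.33 without cell 3, so which pair was most alike depended on cell 10. Gata4 and Gata6 had r of 0.17 (0.0042 without cell 3). Hand2 and Tbx20 had r of 0.44 and a rho of 0.60, and Gata6 and Tbx20 r of 0.42 and a rho of 0.24. Among the 5 factors and Tbx5, r was positive for all pairs except Mef2c with Tbx20 and Mef2c with Tbx5 (-0.13). Mef2c and Tbx20 had r of -0.17 and a rho of 0.10, of opposite sign, and r was -0.30 without cell 3 and 0.37 without cell 8, so its sign rested on cell 8. Mef2c had r of 0.59 with the total count of the cell, and 0.51 without cell 3. All values of a cell share its library and depth, and these correlations over 12 cells are a description.

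The spread between cells was set beside that of the 200 genes nearest in mean CPM. The coefficient of variation was 52.7% for Gata4, 62.7% for Hand2, 78.0% for Tbx20, 79.5% for Gata6 and 79.7% for Mef2c. The share of nearby genes with a smaller coefficient was 61% for Hand2, 65.5% for Gata4, 80% for Mef2c, 86.5% for Tbx20 and 88% for Gata6. By the SD of log2(CPM + 1) the shares were 56.5% for Hand2, 66.5% for Mef2c, 73.5% for Gata4, 76.5% for Gata6 and 95% for Tbx20. Hand2 thus had the smallest share by both measures. The order of the others depended on the measure, and the largest share was that of Gata6 by one and of Tbx20 by the other.

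Cells 3 and 10 set many of the extremes. Cell 10 had the highest level of 3 of the 5 factors counted in every cell, namely Gata6, Hand2 and Mef2c, against 11.2% of all genes counted in every cell. Cell 3 had the lowest level of 3 of the 5, namely Gata4, Hand2 and Mef2c, against 15% of those genes. Cell 3 also had the highest haematopoietic marker sum, at 158 CPM with 75.6 CPM as the next value. Cd68, Csf1r and Lyz2 gave that sum, at 69.1, 59.1 and 30.3 CPM, while Ptprc, Itgam and Spi1 were at 0. Its fibroblast markers were mixed. Pdgfra was highest there at 276 CPM, Col3a1 was at 231 CPM and Dcn at 223 CPM (12.4 CPM in the next cell). Col1a1 was at 12.9 CPM, Col1a2 at 22.1 CPM and Thy1 at 0. The part of these markers in the low levels was not tested. Gata4 and Tbx20 were not extreme in cell 10, and their medians without it were 97.8 and 114 CPM. Without cell 10 the medians of Hand2 and Mef2c were 23.1 and 21.8 CPM, and without cell 3 the medians of Gata4, Hand2 and Mef2c were 97.8, 23.2 and 24.9 CPM. Each of the 5 factors was counted in every remaining cell when either was left out.

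Cell 10 also differed in the genes around the factors. It had the highest Zfpm1, a GATA cofactor of blood and endocardium, at 139 CPM, with 24.9 CPM as the next value, and the highest Foxc2, a forkhead factor of vascular and lymphatic development, at 210 CPM. Prrx1, a mesenchymal homeodomain factor, was lowest there at 8.82 CPM, and Lhx9, Tbx15 and Fgf10 were at 0. Of the 10 endothelial markers, Cldn5 and Vwf were at 0 in every cell, Kdr and Tek were counted in cell 10 alone, and Emcn, Plvap and Pecam1 made most of the sum. The fibroblast list was mixed in cell 10. Col1a1, Col1a2 and Col3a1 were lowest there, at 10.7, 0.376 and 1.13 CPM. Mmp2 was highest, at 1129 CPM against 34.0 CPM in the next cell, Pdgfra was at 175 CPM, and the sum of 1317 CPM was near the median of 1399 CPM over the cells. The part of cell type in the levels of Gata6, Hand2 and Mef2c in cell 10 was not tested.

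Genes whose pattern over the 12 cells was most like that of each factor were ranked by Pearson's r of log2(CPM + 1) among 8491 genes. Tbx20 was followed by Insr, the insulin receptor gene (0.97, and 0.89 without cell 8), Etv3 (0.92) and Rsrp1 (0.92, and 0.68 without cell 8). For Gata4 they were Gmeb2 (0.93), Map7d1 (0.90) and Irak1 (0.88), and for Gata6 they were Hps5 (0.85), Zfhx3 (0.84) and Orc3 (0.83). Hand2 was followed by Fam58b (0.88), Zfp810 (0.86) and Fam214a (0.85), and Mef2c by Casc3 (0.87), Elovl5 (0.87) and Ipo9 (0.86). No factor was among the first 3 genes of another. Of these 15 genes, 4 were again among the first 3 without cell 10, 5 without cell 3 and 5 by Spearman's rho.

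Genes of proteins that work with the factors were mostly counted. Of 26 partner proteins, 19 were counted in every cell, 6 in some and 1 in none, beside 35.3% in every cell and 33.4% in none over all genes, with a median of medians of 21.0 CPM. Cited2, a coactivator partner, was at 150 CPM, Smad4 at 81.1 CPM, Tead1 at 79.6 CPM and Zfpm2, the GATA4 cofactor also called FOG2, at 40.2 CPM. Hdac7, one of the histone deacetylases that bind MEF2 factors, was at 53.1 CPM. Myocd, the coactivator of serum response factor in heart and smooth muscle, had no count. Of 25 relatives from the same families, 4 were counted in every cell, 9 in some and 12 in none (16% in every cell and 48% in none), and their median was 0 CPM.

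Genes of early mesoderm and the heart fields gave 3 of 13 counted in every cell, 6 in some and 4 in none, or 23.1% and 30.8% against 35.3% and 33.4% of all genes. Without cell 10, 5 of the 13 were counted in every cell, a setting for which the share of all genes was not computed. Pdgfra was at a median of 73.1 CPM and Foxc2 at 33.3 CPM, both counted in 12 cells, and Fgf10, a ligand of the second heart field, was at 64.1 CPM in 11 cells. Mesp1, which marks the earliest cardiac mesoderm, had no count, nor had Foxh1, Eya1 or Fgf8. Of 16 other transcription factors known from the heart, 3 were counted in every cell and 5 in none, or 18.8% and 31.2%, with Prrx1 at 222 CPM, Foxp1 at 74.0 CPM and Nr2f2, an atrial factor, at 24.6 CPM. Hey2, Irx1, Irx3, Irx4 and Irx6 had no count, and the fibroblast and epicardial factors Tcf21 and Wt1 were counted in 2 cells each.

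Genes that the factors are known to switch on in cardiomyocytes mostly had a median of 0 CPM. Of 23 such genes, 2 were counted in every cell, 10 in some and 11 in none, against 35.3% and 33.4% over all genes, and the median was 0 CPM. Atp2a2, the calcium pump of the sarcoplasmic reticulum, which many cell types express, was at 123 CPM, and the myosin light chain gene Myl4 at 7.53 CPM. Tnnt2 (cardiac troponin T) was counted in 10 cells at a median of 3.34 CPM, reaching 86.6 CPM in cell 12 and 59.1 CPM in cell 8, and Tnnc1 in 10 cells at 5.38 CPM. Nppa, Nppb, Myh6, Myh7, Actc1, Actn2, Myl3, Myl7, Gja5, Ryr2 and Mybpc3 had no count in any cell. Gata4, Gata6, Hand2, Mef2c and Tbx20 were thus counted in the same cells in which these 11 genes were not.

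**Figure D4:**
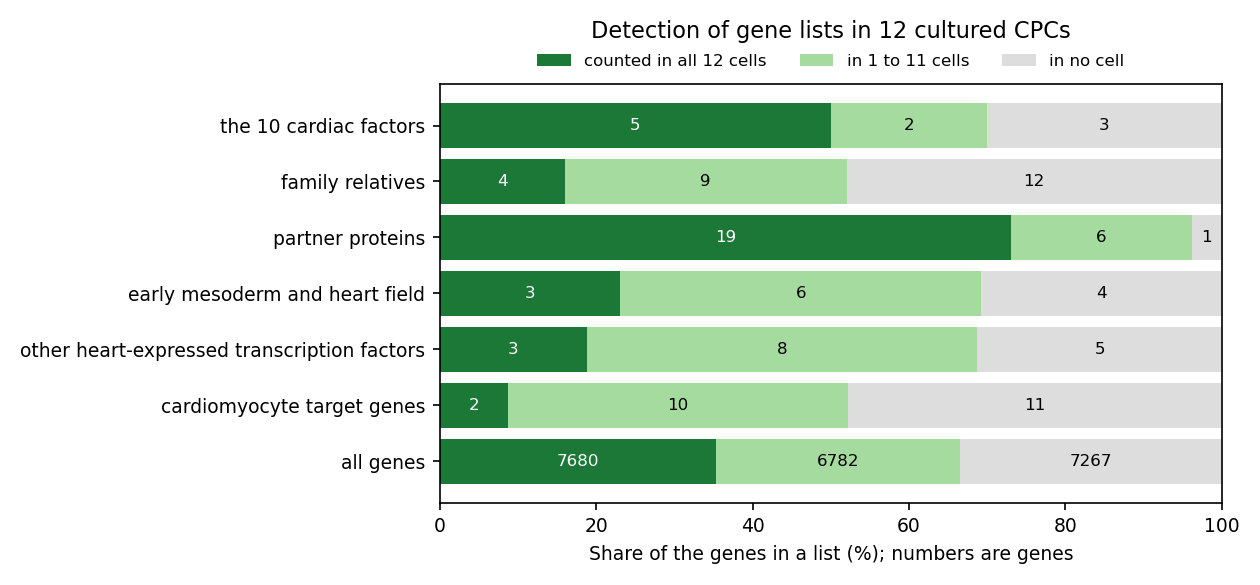
Share of the genes of each list that were counted in all 12 cells, in 1 to 11 cells or in no cell, in percent of the list, with the number of genes in each segment; the last bar is the whole table of 21729 genes. Among the lists drawn, partner proteins have the largest share counted in every cell, 19 of 26, and cardiomyocyte target genes the smallest, 2 of 23.

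Marker genes of the cell types that such a culture could hold were read for the same cells. Of 10 fibroblast markers 4 were counted in every cell, close to the 35.3% of all genes, and 1 was at 10 counts or more in every cell. Col1a2, Col1a1 and Col3a1 had the highest medians, at 690, 167 and 87.0 CPM. Dcn, Lum, Postn and Dpt, counted in 3, 1, 2 and 2 cells, had a median of 0. The sum was 544 to 2859 CPM in 11 cells and 6275 CPM in cell 12. Cardiomyocyte markers summed to 0 to 86.6 CPM, with 7 of 10 at 0 in every cell, beside 33.4% of all genes. Mural markers summed to 13.8 to 172 CPM in 11 cells and to 3737 CPM in cell 11, of which Acta2 alone gave 3668 CPM, with Pdgfrb in 12 cells at a median of 26.1 CPM, Acta2 in 10 cells at 19.2 CPM and Rgs5 in 1 cell.

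Haematopoietic markers summed to 2.81 to 158 CPM. No count in any cell was found for 40% of that list and 30% of the epicardial list, beside 33.4% of all genes. Lyz2 was counted in 8 cells at a median of 10.7 CPM, Cd68 in 11 cells at 10.5 CPM and Csf1r in 10 cells at 5.19 CPM, while Ptprc, the common leukocyte antigen, was counted in 2 cells and Itgam, Spi1, Gata1 and Cd52 were at 0. Epicardial markers summed to 11.2 to 66.4 CPM, with Tbx18 in 12 cells, Upk1b in 7 cells at a median of 4.67 CPM and Aldh1a2 in 7 cells at 2.67 CPM, while Upk3b, Bnc1 and Muc16 were at 0. The sum of 10 cell cycle genes was lowest in cell 11 (34.5 CPM) and highest in cell 9 (5511 CPM), and Cdk1, Ccnb2 and Cenpa had the highest medians, at 120, 91.1 and 66.5 CPM. Fewer RNA molecules and a smaller share of the library cannot be told apart for any factor. The part of cell type and cell cycle in the differences between cells was not tested.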

How the data were processed

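Messenger RNA of 12 single cultured CPCs was copied with the Smart-Seq v4 kit and made into Nextera XT libraries. Per the labels, STAR 2.5.2b and the build mm10 were used, and the methods of the study state paired reads of 75 bases, default settings and the keeping of uniquely mapped reads. What the authors deposited is 1 table of raw counts by gene symbol and cell, without normalization. The counting program, annotation and strand rule are not given in the sources used here, so genes that overlap another gene are uncertain.

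CPM were computed from the deposited counts, at totals of 3453708 to 5690184 per cell. Exon lengths (union over transcripts), positions and coding sequences came from GENCODE vM21, and promoters from RefSeq on GRCm38.p6, whose table had an entry for 6 of the 10 factors. The Poisson interval was exact at 95%. The level that 0 counts allow was 3 counts. Likeness used genes at a mean of 10 CPM or more, and nearby genes were the 200 closest in mean CPM. The steps were tested on simulated data.

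Named were the 10 factors, the 3 genes most like each factor counted in every cell at a median of 10 CPM or more, the 3 highest genes of each list, relatives of the factors and overlapping genes. Other genes of the lists, the collagen genes and the Y-linked genes were named after their values were seen. The factors and lists were chosen with earlier results of these data known. A cell is no replicate here, so nothing was tested. Doublets were not called. A gene of the cardiomyocyte target list is not reported here and was left out of its counts. Detection limits, scalings, lengths, measures of spread and likeness, and left-out cells were varied. The tools were scipy 1.17.1, pandas 2.3.3, numpy 2.4.6 and matplotlib 3.10.9, under Python 3.11.15.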

Additional observations from a re-analysis of the deposited data

How the results depend on the processing

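Of 135 alternatives, 109 stayed within their limit and 26 moved further. The limit was 1 SD over cells for a level, the exact binomial interval over the 200 nearby genes for a spread and 1.5 times for a count, and the change of sign of the r of Mef2c and Tbx20 without cell 8 (0.37) is counted as moved. None of the 37 alternatives to the level of a factor with a median above 0 moved further. For Gata6, Mef2c and Tbx5 the SD (34.2, 25.5 and 3.47 CPM) exceeded the median (32.7, 23.4 and 1.75 CPM). A level of 0 would there have stayed within the limit, so these alternatives could hardly move. For the 4 factors with a median of 0, and for the genes at 0 counts under stricter detection limits, the outcome was fixed by construction. The number of factors past the limit in every cell was 4 at 5 counts, 10 counts, 1 CPM or equal depth, where Tbx20 dropped out through cell 8. It was 2 at 10 CPM, namely Gata4 and Gata6. Equal depth asked for a chance of 0.95 of at least 1 count after sampling to the lowest total. Tbx20 was there still expected in 11.9 of 12 cells. The share of all genes at these limits was not computed. With the longest transcript as length, 2 factors changed rank per kb.

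By the SD of log2(CPM + 1), the share of nearby genes with a smaller spread was 73.5% for Gata4, 76.5% for Gata6, 66.5% for Mef2c and 95% for Tbx20. With cell 3 or 10 left out, and for Tbx20 also cell 8 (added after the data were seen), it ran from 62.5 to 73% for Gata4, from 79.5 to 87.5% for Gata6 and from 84.5 to 91% for Tbx20, and cell 10 gave the 73, 79.5 and 91%. Of the 15 genes named for likeness, 5 were shared under Spearman's rho and 9 with log2(CPM + 10). Without cell 10 or cell 3 it was 4 and 5, so these names change when 1 cell is left out. The cause of these moves was not tested.

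At 10 CPM or more in every cell, 7 partner proteins, 0 early mesoderm genes, 1 other heart factor, 1 cardiomyocyte target, 1 fibroblast marker, 0 mural, 0 epicardial and 0 cell cycle genes passed. At 10 counts or more it was 1 early mesoderm gene, 1 fibroblast marker and 1 cell cycle gene. A stricter limit takes in fewer genes by construction. Without cell 10, 5 early mesoderm genes were counted in every cell, and leaving out a cell cannot lower such a number. The share of all genes at these limits, or without cell 10, was not computed. Leaving the 50 most abundant genes out of the totals moved all genes by 0.26 on the log2 scale, and other scalings by at most 0.02. No paired analysis was possible because the cells form 1 group.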
